A study of Mus musculus with 8 samples.

Results

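In embryos without Kitl, endothelial cells and hematopoietic cluster cells of the E11.5 AGM+VU were compared directly, to ask how far the 2 cell types were set apart in their RNA when the ligand of Kit was missing. The comparison took the 2 Sl/Sl endothelium and the 2 Sl/Sl cluster samples, 4 of the 8 samples sequenced, and every gene in the count table. Sl/Sl embryos are homozygous for a deletion that removes the Steel locus, which encodes Kitl, in all tissues. Clusters were sorted as Ter119- VE-Cadherin+ c-Kit+ cells and endothelium as Ter119- VE-Cadherin+ c-Kit- CD41- CD45- cells, so both populations passed a gate for the endothelial cadherin. Each sample held 100 sorted cells from pooled embryos of 1 genotype, and wild type clusters and endothelium, also 2 samples each, gave the same contrast with Kitl present. No agent was given to any group. Cells were collected in 2 sorts, and nothing in the sources used here ties a sample to either of them, so sort effects could not be fitted. The deletion is constitutive, so effects in either population cannot be assigned to Kitl made by a given cell type.

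Hematopoietic clusters bud from the wall of the embryonic aorta, where hemogenic endothelial cells turn on Runx1 and then lose their endothelial program as they gain blood genes. Kit is the receptor tyrosine kinase that clusters carry, and Kitl is its ligand, made by the endothelium and by the surrounding stroma. Receptor activation feeds the MAPK and PI3K pathways, and cluster cells that have only recently left the aortic wall still carry VE-Cadherin.

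The 4 Sl/Sl libraries held between 8933236 and 13428214 counts on genes, with 12926 to 14309 genes detected, and 3 counts amounted to between 0.21 and 0.358 CPM (counts normalized to library totals with TMM factors). Kitl itself had 6 and 2 counts in Sl/Sl endothelium and 1 and 3 in Sl/Sl clusters, against 1250 and 923 in wild type endothelium. Across genes, the Spearman correlation was 0.897 between the Sl/Sl endothelium libraries, 0.885 between the Sl/Sl cluster libraries, and 0.799 to 0.862 between endothelium and clusters. In wild type it was 0.763 to 0.815 between endothelium and clusters. In Sl/Sl it was 0.843 and 0.862 with clusters replicate 1, and 0.799 and 0.815 with replicate 2. Only the values with replicate 1 lay above the wild type range. These correlations are across genes, which are not independent replicates. Of 24015 genes in the table, 13908 had enough counts to be tested with edgeR's quasi-likelihood test, and a gene was called when its Benjamini-Hochberg adjusted p was under 0.1. A log2 fold change above 0 means a higher level in endothelium. Its standard error (SE) was worked back from the test, as the size of the log2 fold change divided by the square root of the F statistic. The spread in that test is shared over all 8 libraries. Nothing in the labels ties samples to separate litters, so p-values measure the spread between these samples. A lower level in a sorted pool can mean fewer cells with the transcript or less of it per cell, and the 2 cannot be told apart.

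Libraries of a group differed in transcripts that mark cell types outside the gates, and whether these came from other cells or from the sorted cells was not tested. The summed CPM of 28 mesenchymal and smooth muscle genes was 470.4 in Sl/Sl clusters replicate 1 and 6218 in replicate 2, against 727.8 and 1533 in Sl/Sl endothelium. Skeletal muscle genes summed to 390.2 and 1363 CPM in the clusters and to 92.92 and 121.9 CPM in the endothelium. Conversely, 30 endothelial receptor and adhesion genes summed to 7442 CPM in Sl/Sl clusters replicate 1 and to 2686 CPM in replicate 2, against 17650 and 18240 CPM in Sl/Sl endothelium. In the wild type clusters the same sum was 3874 and 1959 CPM. The part of these differences in the results that follow was not tested, apart from the counts of calls that are given without single libraries.

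The promoters of 3 genes called in this comparison are shown first, as reference sequence from RefSeq in build GRCm38.p6, from 250 bases before to 50 bases after a transcription start. Runx1, the master regulator of the endothelial-to-hematopoietic transition, is shown at both of its annotated starts, Prtn3 as a neutrophil granule gene of clusters, and Jag1 as the Notch ligand of the arterial wall. Each was the member of its gene list with the smallest p that had a promoter entry. Capitals mark TGTGGT, the core bound by RUNX factors, AGGAAG, a core bound by ETS factors, and AGATAA, a core bound by GATA factors, on either strand.
Runx1 distal start, chr16:92826025-92826324, minus strand: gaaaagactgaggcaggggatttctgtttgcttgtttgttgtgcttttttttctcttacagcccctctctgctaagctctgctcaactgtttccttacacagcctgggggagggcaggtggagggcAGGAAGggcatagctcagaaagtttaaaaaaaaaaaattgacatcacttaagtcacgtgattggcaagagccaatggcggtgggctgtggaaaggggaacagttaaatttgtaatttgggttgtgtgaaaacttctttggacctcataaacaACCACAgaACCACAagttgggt
Runx1 proximal start, chr16:92697280-92697579, minus strand: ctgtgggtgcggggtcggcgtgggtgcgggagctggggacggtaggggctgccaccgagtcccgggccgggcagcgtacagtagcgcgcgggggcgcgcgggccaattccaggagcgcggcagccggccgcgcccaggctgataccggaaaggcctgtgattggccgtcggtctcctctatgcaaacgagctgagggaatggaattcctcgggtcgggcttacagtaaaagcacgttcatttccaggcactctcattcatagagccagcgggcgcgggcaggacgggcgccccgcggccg
Prtn3, chr10:79879417-79879716, plus strand: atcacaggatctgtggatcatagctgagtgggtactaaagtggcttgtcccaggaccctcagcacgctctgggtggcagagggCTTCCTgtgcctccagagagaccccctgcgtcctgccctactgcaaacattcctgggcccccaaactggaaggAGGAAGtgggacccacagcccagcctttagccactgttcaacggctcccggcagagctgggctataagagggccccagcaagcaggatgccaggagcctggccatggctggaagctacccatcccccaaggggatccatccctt
Jag1, chr2:137116471-137116770, minus strand: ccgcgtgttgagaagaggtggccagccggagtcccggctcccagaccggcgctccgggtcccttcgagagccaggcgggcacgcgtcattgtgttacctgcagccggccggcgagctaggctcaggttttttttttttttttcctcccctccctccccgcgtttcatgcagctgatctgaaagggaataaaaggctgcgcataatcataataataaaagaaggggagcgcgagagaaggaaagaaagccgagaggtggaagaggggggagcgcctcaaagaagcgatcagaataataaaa

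The distal Runx1 window held 2 RUNX cores, with their first bases at positions 29 and 37 after the start, and 1 ETS core. The proximal Runx1 window and the Jag1 window held none of the 3 letter strings, and the Prtn3 window held 2 ETS cores. Over all genes, 193 of the 256 genes called higher in Sl/Sl clusters and 98 of the 137 called higher in Sl/Sl endothelium had a promoter entry, and the first entry of each was searched. TGTGGT or its complement stood in 56 of the 193 cluster promoters, 29% of them, in 12.2% of the endothelial ones and in 12.5% of the 10399 promoters of tested genes. For AGGAAG the shares were 47.2%, 42.9% and 33.6%, and for AGATAA they were 12.4%, 5.1% and 6.6%. The median GC content of the windows was 55.3% for the cluster genes and 60.7% for both other sets. The shares are a description of letters in these windows, without a test.

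Sl/Sl endothelium and Sl/Sl clusters differed in 393 genes, 2.83% of those tested. Clusters were the higher population for 256 of them (1.84% of genes tested) and endothelium for 137 (0.985%). The counts of calls in the gene lists below are to be set against these shares over all genes. Lists and their members were chosen with earlier results of these data known. Their shares of calls therefore describe the lists and are no test of them. At an unadjusted p under 0.05 the counts were 1089 and 908 genes. The smallest adjusted p was 0.00108, and all 393 called genes had library values that did not overlap between the 2 groups, as did 24.4% of all tested genes in the direction of clusters and 21.9% in the direction of endothelium. The call count fell to 182 without Sl/Sl clusters replicate 2 and to 242 without Sl/Sl endothelium replicate 1, and 138 genes were called whichever of the 4 Sl/Sl libraries was left out, 115 of them higher in clusters and 23 higher in endothelium. All 393 kept their sign in each of these fits.

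Genes called higher in clusters had a median log2 difference of 6.63, and 138 of the 256 (53.9%) had a mean under 1 CPM in endothelium. Genes called higher in endothelium had a median log2 difference of 2.05, and only 4 of the 137 (2.92%) had a mean under 1 CPM in clusters. The filter on low counts was run over all 8 libraries. A gene under 1 CPM in one Sl/Sl population could pass it through the other or through wild type libraries. These shares therefore describe the calls and are no test of the 2 directions. With at least 10 counts required in every library the calls were 137 higher in endothelium and 132 higher in clusters. In wild type 90 of 634 endothelial calls and 205 of 512 cluster calls had a mean under 1 CPM in the lower population. These shares were not tested against each other. The median SE was 0.40 for the endothelial calls and 0.94 for the cluster calls. Called genes passed a cut on the statistic that gives the SE, so larger fold changes can carry larger SE. The 2 medians therefore do not compare the spread of the 2 sets.

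The gates used the proteins of the sort markers, whose transcripts are given as a description of the sort. Ptprc, which encodes CD45, was at 0.701 and 0.834 CPM in the endothelium and at 106 and 222 CPM in the clusters, a log2 fold change of -7.73 (SE 0.69). Kit was at 66.8 and 64.1 CPM in endothelium and at 241 and 225 CPM in clusters, a log2 fold change of -1.83 (SE 0.29), so endothelium sorted as negative for the Kit protein still carried 538 counts or more of its transcript in each library. Itga2b, which encodes CD41, was at 9.55 and 10.7 CPM in endothelium and at 8.95 and 18.95 CPM in clusters, and these values overlapped (log2 fold change -0.46, SE 0.94). Its fold change was 0.18 without Sl/Sl clusters replicate 2, so no direction is given. Cdh5, which encodes VE-Cadherin, was at 621 and 562 CPM in endothelium and at 149 and 46.1 CPM in clusters, and this difference was not called (log2 fold change 2.60, SE 1.02, edgeR adjusted p = 0.292). The 2 cluster libraries were well apart in Cdh5, with replicate 1 the higher.

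**Figure D1:**
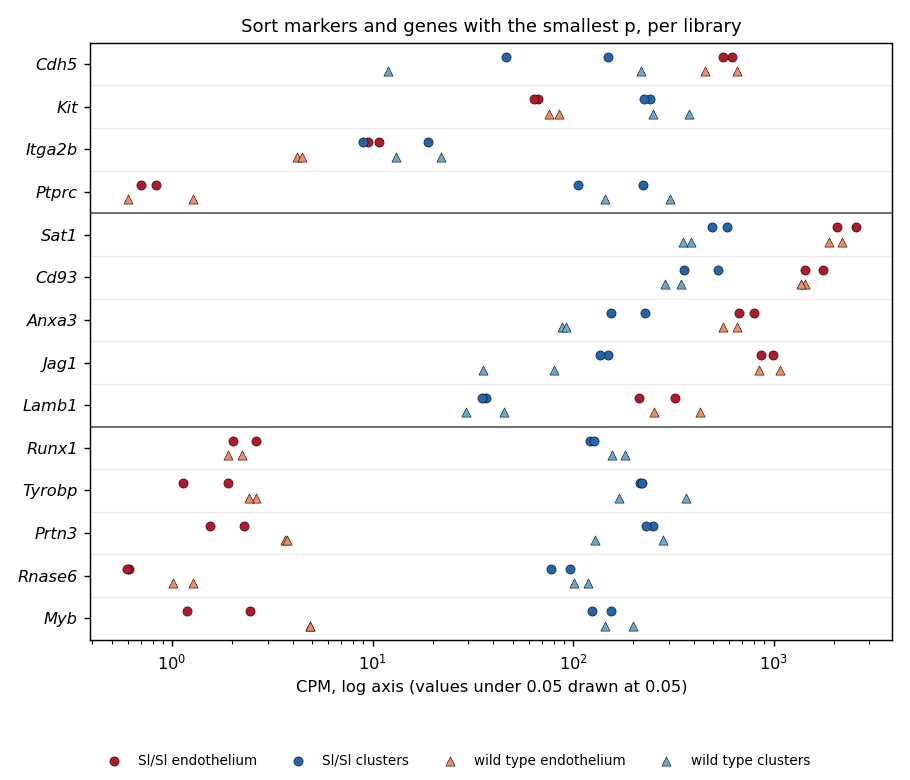
CPM on a log axis in each library for 4 sort markers (top), the 5 genes with the smallest p among those higher in Sl/Sl endothelium (middle) and the 5 among those higher in Sl/Sl clusters (bottom). Circles are Sl/Sl libraries and triangles wild type libraries, with endothelium in reds and clusters in blues. Red and blue circles separate in every row except Itga2b, and the lower 5 genes lie at 2.63 CPM or less in Sl/Sl endothelium.

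The 5 genes with the smallest p toward clusters were Runx1, Tyrobp, Prtn3, Rnase6 and Myb. Runx1 was at 2.63 and 2.03 CPM in Sl/Sl endothelium and at 122 and 128 CPM in Sl/Sl clusters (log2 fold change -5.73, SE 0.42, edgeR adjusted p = 0.00108). Myb, a transcription factor of definitive hematopoietic progenitors, was at 2.45 and 1.19 CPM against 155 and 125 CPM (log2 fold change -6.24, SE 0.51). Tyrobp, the adaptor of several myeloid receptors, was at 1.14 and 1.91 CPM against 215 and 222 CPM (log2 fold change -7.18, SE 0.54). The cluster libraries agreed closely for these genes and lay far from both endothelial libraries. Prtn3, a neutrophil serine protease, had a log2 fold change of -6.95 (SE 0.53) and Rnase6, a ribonuclease of myeloid cells, one of -7.14 (SE 0.56). The 5 genes shared an edgeR adjusted p of 0.00108 and were called in each fit without 1 Sl/Sl library.

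The hematopoietic transcription factor list held 34 tested genes. Of these 11 were called higher in clusters, 32.4% against 1.84% of all tested genes, and 0 in endothelium. On the log2 scale the list had a median of -1.12, against -0.066 for all tested genes. The list median was -1.75 without Sl/Sl endothelium replicate 2 and -0.72 with at least 10 counts required in every library (20 genes tested). Besides Runx1 and Myb, Ikzf1, a lymphoid and stem cell zinc finger factor, was at 1.31 and 0.953 CPM in endothelium and at 71.6 and 152 CPM in clusters (log2 fold change -6.60, SE 0.57, edgeR adjusted p = 0.00121). Spi1, which encodes the myeloid factor PU.1, was at 1.84 and 0.715 CPM against 169 and 58.9 CPM (log2 fold change -6.44, SE 0.90, edgeR adjusted p = 0.0110). Gfi1b, a repressor that Runx1 turns on as endothelial genes are shut down, had a log2 fold change of -5.69 (SE 0.85, edgeR adjusted p = 0.0137). These 5 factors were called without each Sl/Sl library in turn. The list's count of calls ranged from 8 to 10 in those fits.

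Surface and cytokine receptors of blood cells showed the same direction in 15 called genes of 33 tested, 45.5% against 1.84% of all tested genes. The list includes Kit, Ptprc and Itga2b, whose proteins the gates used. Kit and Ptprc are among the 15 calls, and the sort favored their direction. The list median was -4.19 on the log2 scale, and 0 were called higher in endothelium. That median was -0.54 over the 13 members with at least 10 counts in every library, since others could pass the filter through some libraries only. It was -6.48 without Sl/Sl endothelium replicate 1 and -2.92 without Sl/Sl clusters replicate 2. Itga4, the integrin chain through which progenitors bind VCAM1, was at 24.5 and 17.6 CPM in Sl/Sl endothelium and at 184 and 141 CPM in clusters (log2 fold change -2.94, SE 0.35, edgeR adjusted p = 0.00531). Fcgr3, the Fc receptor seen by the CD16/32 antibody together with Fcgr2b, was at 1.75 and 2.15 CPM against 392 and 290 CPM (log2 fold change -7.45, SE 0.94, edgeR adjusted p = 0.00774). Selplg, the selectin ligand PSGL-1, and Itgal, the leukocyte integrin chain CD11a, had log2 fold changes of -7.35 (SE 0.97) and -7.20 (SE 1.13). Without Sl/Sl clusters replicate 2 the list had 8 calls, and the 4 genes named here were among them.

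Leukocyte signaling and cytoskeleton was the list with the largest share of calls among those of over 20 tested genes. It had 23 of 38 tested genes called higher in clusters, 60.5% against 1.84% of all tested genes, and 0 higher in endothelium. The median log2 fold change was -4.53. Rac2, the hematopoietic Rac GTPase, was at 3.15 and 1.19 CPM in endothelium and at 177 and 383 CPM in clusters (log2 fold change -6.97, SE 0.72, edgeR adjusted p = 0.00250). Lcp2, the adaptor SLP-76, was at 0.350 and 0.238 CPM against 73.3 and 72.9 CPM (log2 fold change -7.88, SE 0.76, edgeR adjusted p = 0.00186). Dock2, a Rac activator of leukocytes, and Cd52, a small surface glycoprotein, had log2 fold changes of -7.77 (SE 0.81) and -7.49 (SE 0.90). Each was under 1 CPM in both endothelial libraries. All 38 members of the list had a negative log2 fold change, down to -10.84. Over the 21 members with at least 10 counts in every library the list median was -1.28, with 11 calls. Between 18 and 23 members were called when 1 Sl/Sl library was left out.

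Granule and lineage genes formed a further group. Of 9 neutrophil granule genes tested, out of 16 listed, 6 were called higher in clusters, 66.7% against 1.84% of all tested genes. The list median was -6.38 on the log2 scale. With at least 10 counts required in every library, 3 of 6 tested members were called, at a median of -6.09. Without Sl/Sl clusters replicate 1 the median was -5.57 over 14 tested members. Mpo, the peroxidase of neutrophil granules, was at 6.13 and 4.05 CPM in Sl/Sl endothelium and at 591 and 548 CPM in Sl/Sl clusters (log2 fold change -6.79, SE 0.74, edgeR adjusted p = 0.00332). Lyz2, the lysozyme of macrophages and neutrophils, was at 3.07 and 3.22 CPM against 566 and 294 CPM (log2 fold change -7.09, SE 1.01, edgeR adjusted p = 0.0117). Elane, neutrophil elastase, was at 1.14 and 1.43 CPM against 98.7 and 47.3 CPM (log2 fold change -5.82, SE 0.98, edgeR adjusted p = 0.0231), and in wild type at 0.636 and 1.11 CPM in endothelium against 0.949 and 2.34 CPM in clusters. Elane lost the call without Sl/Sl clusters replicate 1 (adjusted p = 0.240), as did Ms4a3, a membrane protein of granulocyte-monocyte progenitors (adjusted p = 0.132).

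The megakaryocyte and platelet list had 7 of 22 tested members called higher in clusters, 31.8% against 1.84% of all tested genes. Its median was -5.35 on the log2 scale, or -5.03 once genes at 0 in endothelium took the bound of 3 counts. It was -0.54 over the 9 members with at least 10 counts in every library, and -3.71 without Sl/Sl clusters replicate 2. Nfe2, the factor that drives platelet release, was at 3.50 and 0.477 CPM in endothelium and at 115.5 and 52.4 CPM in clusters (log2 fold change -5.36, SE 0.96, edgeR adjusted p = 0.0311). Plek, a protein kinase C substrate of platelets, had a log2 fold change of -6.04 (SE 1.10), and both genes were called without each Sl/Sl library. Pf4 and Ppbp, chemokines of platelet granules, were uneven between the cluster libraries, at 111 and 690 CPM for Pf4 and at 47.1 and 741 CPM for Ppbp. Ppbp had 1 and 0 counts in endothelium, which puts the ratio of clusters to endothelium at 8352 with a 95% counting interval of 1499 to 329930. Ppbp lost the call without either endothelial library (adjusted p = 0.199 and 0.136) and without Sl/Sl clusters replicate 2 (adjusted p = 0.102), and Pf4 lost it without Sl/Sl endothelium replicate 1 (adjusted p = 0.124). Gp9, a subunit of the platelet receptor for von Willebrand factor, had 1 and 0 counts in endothelium and 348 and 390 in clusters, a ratio of 552 (95% counting interval 98.8 to 21841). It lost the call without Sl/Sl endothelium replicate 2 and without either cluster library (adjusted p = 0.108, 0.112 and 0.132). Vwf, which platelets share with endothelium, went the other way, with 872 and 616 CPM in endothelium and 202.5 and 81.35 CPM in clusters (log2 fold change 2.39, SE 0.55, edgeR adjusted p = 0.0795), and lost its call without Sl/Sl endothelium replicate 1 (adjusted p = 0.177) or Sl/Sl clusters replicate 2 (adjusted p = 0.205). Without that cluster library 3 members were called higher in clusters, and without either endothelial library 4. The summed level of the list overlapped between the groups, at 1339 and 1268 CPM in endothelium and 907.5 and 2936 CPM in clusters.

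Macrophage genes had 4 of 22 tested members called higher in clusters, 18.2% against 1.84% of all tested genes, and 0 higher in endothelium. The list median was -6.62 on the log2 scale, or -5.56 with that bound. Only 3 members had at least 10 counts in every library, with a median of -4.35. Ctss, a lysosomal protease of antigen-presenting cells, was at 0.263 and 0.596 CPM in endothelium and at 86.5 and 100 CPM in clusters (log2 fold change -7.78, SE 0.65, edgeR adjusted p = 0.00108). Cd68, a lysosomal glycoprotein, was at 2.01 and 3.81 CPM against 62.4 and 50.7 CPM (log2 fold change -4.28, SE 0.71, edgeR adjusted p = 0.0214). Csf1r, the receptor that macrophages need, had 3 and 0 counts in endothelium and 263 and 529 in clusters, a ratio of 198 (95% counting interval 67.4 to 960), and lost the call without Sl/Sl clusters replicate 2 (adjusted p = 0.104). The list summed to 76.3 and 42.4 CPM in Sl/Sl endothelium and to 1035 and 598 CPM in Sl/Sl clusters, and 22 and 19 of its 24 members had over 3 counts in the cluster libraries. Of 12 erythroid genes tested only Car2, a carbonic anhydrase, was called, 8.33% against 1.84% of all tested genes toward clusters. Car2 was at 8.58 and 9.415 CPM against 374 and 280 CPM (log2 fold change -5.18, SE 0.73, edgeR adjusted p = 0.0117). The embryonic globin gene Hbb-y was at 26.45 and 74.96 CPM in endothelium and at 222 and 10.8 CPM in clusters, which overlapped.

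Among called genes whose higher group had a mean of at least 50 CPM, those with the largest difference toward clusters included, besides Ppbp and Pf4, the following. Ccl3 and Ccl4, chemokines of activated leukocytes, were at 154 and 249.5 CPM and at 189 and 227 CPM in the clusters, and each was under 1 CPM in both endothelial libraries (log2 fold change -8.91, SE 0.81, and -8.57, SE 0.71). Il12a, which encodes the p35 chain of interleukin 12, was at 0.175 and 0.3575 CPM against 61.9 and 145 CPM (log2 fold change -8.60, SE 1.20, edgeR adjusted p = 0.0110). Cpa3, a mast cell protease, was at 1.75 and 0.477 CPM in endothelium and at 36.0 and 920 CPM in clusters (log2 fold change -8.67, SE 1.77, edgeR adjusted p = 0.0494). Its 2 cluster libraries were far apart, and the call was lost without Sl/Sl endothelium replicate 1 (adjusted p = 0.105). Hpgds, the hematopoietic prostaglandin D synthase, had 3 counts in all in endothelium and 797 and 647 in clusters, a ratio of 360 (95% counting interval 123 to 1749).

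In the other direction, the 5 genes with the smallest p were Sat1, Cd93, Anxa3, Jag1 and Lamb1, and each was called without every Sl/Sl library in turn. Sat1, an enzyme of polyamine catabolism, was at 2577 and 2077 CPM in Sl/Sl endothelium and at 586 and 496 CPM in Sl/Sl clusters (log2 fold change 2.11, SE 0.19, edgeR adjusted p = 0.00144). Cd93, a lectin-like receptor of endothelium and early progenitors, was at 1427 and 1765 CPM against 531 and 358 CPM (log2 fold change 1.85, SE 0.24, edgeR adjusted p = 0.00808). Jag1 was at 991 and 864 CPM against 150 and 137 CPM (log2 fold change 2.70, SE 0.36, edgeR adjusted p = 0.00956). The groups were well apart for each of these genes, while every cluster library still held over 100 CPM of Sat1, Cd93 and Jag1. Anxa3, an annexin, and Lamb1, the laminin beta 1 chain, had log2 fold changes of 1.93 (SE 0.25) and 2.90 (SE 0.39).

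All 30 endothelial receptor and adhesion genes had a positive log2 fold change in Sl/Sl, with a median of 1.98. For 28 of them the libraries did not overlap, against 21.9% of all tested genes in that direction. Of the 30 genes 6 were called, 20% against 0.985% of all tested genes. The list median was 3.32 without Sl/Sl clusters replicate 1 and 1.56 without replicate 2. S1pr1, the sphingosine 1-phosphate receptor that stabilizes vessels, was at 551 and 465 CPM in endothelium and at 138 and 71.6 CPM in clusters (log2 fold change 2.27, SE 0.33, edgeR adjusted p = 0.0127) and was called without each library. Flt1, the decoy receptor for VEGF, was at 164 and 161.5 CPM against 40.2 and 14.8 CPM (log2 fold change 2.57, SE 0.49, edgeR adjusted p = 0.0405). Robo4, a guidance receptor that maintains the barrier, was at 157 and 140 CPM against 21.6 and 4.83 CPM (log2 fold change 3.49, SE 0.72, edgeR adjusted p = 0.0518). Both lost the call without Sl/Sl clusters replicate 2 (adjusted p = 0.121 and 0.107). In Sl/Sl 15 of the 30 genes were called by DESeq2 on the 8 libraries and 17 by edgeR with the replicate number as a block. No such counts were made for this list in wild type. In wild type 23 of the 30 genes were called by edgeR, against 4.56% of all tested genes in that direction. Without Sl/Sl clusters replicate 1, the library with the higher sum of these genes, the Sl/Sl count was 23 as well, and without Sl/Sl clusters replicate 2 it was 2.

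Endothelial transcription factors had a list median of 1.83 on the log2 scale. Of 28 tested genes 4 were called, all higher in endothelium, 14.3% against 0.985% of all tested genes. Id3, a helix-loop-helix inhibitor turned on by BMP signals, was at 1190 and 1341 CPM in endothelium and at 498 and 351.5 CPM in clusters (log2 fold change 1.58, SE 0.23, edgeR adjusted p = 0.0117). It was the one member of the list called without each Sl/Sl library. Ets1, Klf2 and Id1 were called with edgeR adjusted p between 0.0921 and 0.0969, and were lost without Sl/Sl clusters replicate 2 (adjusted p = 0.293, 0.314 and 0.318), and without Sl/Sl endothelium replicate 1 (adjusted p = 0.141, 0.262 and 0.207). Ets1 was also lost without Sl/Sl endothelium replicate 2 or Sl/Sl clusters replicate 1, and Id1 without Sl/Sl endothelium replicate 2. Mef2c, a factor of both lineages, was at 100 and 121 CPM in endothelium and at 201 and 210 CPM in clusters, not called in Sl/Sl (edgeR adjusted p = 0.148) and called higher in clusters in wild type (adjusted p = 0.0175).

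The arterial and Notch list had a median of 2.46 on the log2 scale. Of its 24 tested genes 5 were called, all higher in endothelium, 20.8% against 0.985% of all tested genes. Besides Jag1 they were Efnb2, the arterial ephrin, Notch1, the receptor that hemogenic endothelium requires, Nrp1, a VEGF co-receptor, and Vegfc, a growth factor for lymphatic and venous endothelium. Notch1 was at 223 and 233 CPM in endothelium and at 44.8 and 52.1 CPM in clusters (log2 fold change 2.23, SE 0.46, edgeR adjusted p = 0.0494). In wild type clusters Notch1 was at 116 and 41.7 CPM, and the difference there was not called (log2 fold change 1.09, adjusted p = 0.213). Efnb2 was at 835 and 630 CPM in endothelium and at 217 and 138 CPM in clusters (log2 fold change 2.05, SE 0.40, edgeR adjusted p = 0.0450). Only Jag1 was called without each Sl/Sl library, and without Sl/Sl clusters replicate 2 it was the list's only call, while Efnb2 and Notch1 were at adjusted p = 0.152 and 0.132. Efnb2 was also lost without Sl/Sl endothelium replicate 1 (adjusted p = 0.110) and Notch1 without Sl/Sl clusters replicate 1 (adjusted p = 0.128), and Nrp1 and Vegfc were lost without any 1 of the 4 libraries (adjusted p up to 0.197 and 0.326). The venous, lymphatic and scavenger list had 3 of 14 tested genes called, Nrp2, Ephb4 and Vwf, at a list median of 2.17 on the log2 scale, and 0 were called without Sl/Sl clusters replicate 2 or without Sl/Sl endothelium replicate 1. Nrp2 was also lost without Sl/Sl clusters replicate 1 (adjusted p = 0.111).

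**Figure D2:**
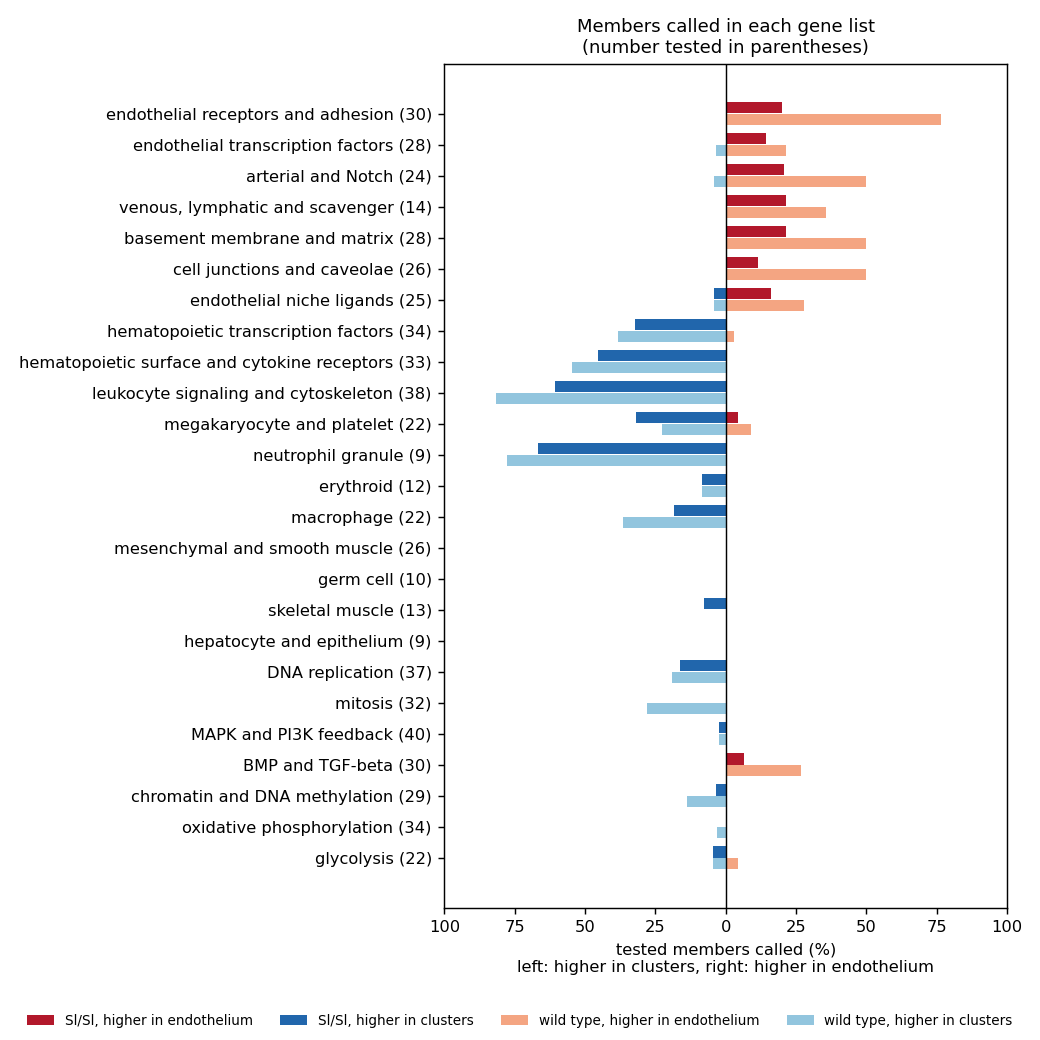
Share of the tested members of each gene list called at an adjusted p under 0.1, in percent, with bars to the right for genes higher in endothelium and to the left for genes higher in clusters. Dark bars are Sl/Sl and pale bars wild type. Most calls of the blood lists point left and most of the endothelial lists right in both genotypes. The largest gap between genotypes is that of endothelial receptors and adhesion, with 6 against 23 of 30 members by edgeR. The Sl/Sl count of that list depended on the method, with 15 members called by DESeq2 on the 8 libraries.

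Basement membrane and matrix genes, the products that anchor the aortic wall, were called in 6 of 28 tested members, all higher in endothelium. This was 21.4%, against 0.985% of all tested genes, at a list median of 2.09 on the log2 scale. Nid1, the linker of laminin and collagen IV networks, was at 633 and 617 CPM in endothelium and at 76.8 and 79.0 CPM in clusters (log2 fold change 3.00, SE 0.40, edgeR adjusted p = 0.00971). Sparcl1, a matricellular protein, was at 667 and 711 CPM against 90.0 and 30.4 CPM (log2 fold change 3.52, SE 0.63, edgeR adjusted p = 0.0327). Lamb1, Nid1 and Sparcl1 were called without each Sl/Sl library. Lamc1 and Lama4, further laminin chains, had log2 fold changes of 2.45 (SE 0.53) and 3.17 (SE 0.74) and lost the call without Sl/Sl clusters replicate 2 (adjusted p = 0.200 and 0.178). Lamc1 was also lost without Sl/Sl endothelium replicate 1 or Sl/Sl clusters replicate 1, and Lama4 without Sl/Sl endothelium replicate 2. Of 26 junction and caveolae genes 3 were called, all higher in endothelium, namely Sdpr and Cav2, components of caveolae, and F11r, a junctional adhesion molecule, at a list median of 1.75 on the log2 scale. Without Sl/Sl clusters replicate 2 this list had 0 calls, without replicate 1 it had 6, and without either endothelial library it had 1.

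Ligands that endothelium can offer to blood cells were called in 5 of 25 tested genes, 4 higher in endothelium and 1 higher in clusters. These were 16% and 4%, against 0.985% and 1.84% of all tested genes. Besides Jag1 and Vegfc, the endothelial ones were Igf1, an insulin-like growth factor, at 400 and 353 CPM against 127 and 173 CPM, and Edn1, the vasoconstrictor endothelin 1, at 211 and 193 CPM against 40.65 and 9.44 CPM. Igf1 lost the call in each fit without 1 Sl/Sl library (adjusted p = 0.105 to 0.225), and Edn1 without Sl/Sl endothelium replicate 1 (adjusted p = 0.118) or Sl/Sl clusters replicate 2 (adjusted p = 0.132). Angpt1, the ligand of the endothelial receptor Tek, was the opposite one, at 10.3 and 14.1 CPM in Sl/Sl endothelium and at 163 and 70.9 CPM in clusters (log2 fold change -3.26, SE 0.56, edgeR adjusted p = 0.0247). It stayed called without each Sl/Sl library. In wild type it was at 0.875 and 1.62 CPM in endothelium and at 167 and 105 CPM in clusters. On the log2 scale the list median was 1.32, and 0.86 without Sl/Sl endothelium replicate 2.

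Called genes with the largest difference toward endothelium and a mean of at least 50 CPM there included Abcc9, a subunit of a potassium channel, at 43.7 and 98.3 CPM against 2.46 and 2.94 CPM (log2 fold change 4.71, SE 0.79, edgeR adjusted p = 0.0231), and Apold1, an endothelial early response gene, at 115 and 128 CPM, with 1310 and 1075 counts against 140 and 129 (log2 fold change 3.56, SE 0.59, edgeR adjusted p = 0.0213). Both lost the call, at an adjusted p of 0.101 each, without Sl/Sl clusters replicate 2. Tmem100, a target of BMP9 signaling in arteries, was at 672 and 603 CPM against 103 and 18.0 CPM (log2 fold change 3.39, SE 0.78, edgeR adjusted p = 0.0787), and lost the call without Sl/Sl endothelium replicate 1 (adjusted p = 0.106). Ssu2 was at 80.1 and 45.8 CPM against 2.38 and 0.210 CPM (edgeR adjusted p = 0.0599), and lost the call without Sl/Sl endothelium replicate 1 or Sl/Sl clusters replicate 2 (adjusted p = 0.225 and 0.141). The BMP and TGF-beta list itself had Id3 and Id1 called of 30 tested, 6.67% against 0.985% of all tested genes. The list median was 0.96 on the log2 scale.

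DNA replication genes were called higher in clusters in 6 of 37 tested members, 16.2% against 1.84% of all tested genes. The list median was -0.64 on the log2 scale. Prim1, a primase subunit, was at 113 and 103 CPM in Sl/Sl endothelium and at 290 and 289 CPM in clusters (log2 fold change -1.42, SE 0.27, edgeR adjusted p = 0.0417). Cdc6, which loads the replicative helicase, was at 2.28 and 9.30 CPM against 61.0 and 85.3 CPM (log2 fold change -3.67, SE 0.69, edgeR adjusted p = 0.0405). In wild type endothelium Cdc6 was at 55.7 and 41.6 CPM, close to the wild type clusters at 65.9 and 55.7 CPM (log2 fold change -0.32, adjusted p = 0.837). Without Sl/Sl clusters replicate 2 this list had 0 calls, with Cdc6 at an adjusted p of 0.104 and Prim1 at 0.112. Without Sl/Sl endothelium replicate 2 it had 2, and Prim1 was lost without either endothelial library (adjusted p = 0.124 and 0.135). Dnmt3b, a de novo DNA methyltransferase, was at 27.1 and 30.0 CPM in endothelium and at 123 and 145 CPM in clusters (log2 fold change -2.23, SE 0.31, edgeR adjusted p = 0.0109), the only call among 29 chromatin genes. Hk2, the hexokinase of growing cells, was at 8.32 and 17.2 CPM against 100 and 141 CPM (log2 fold change -3.25, SE 0.46, edgeR adjusted p = 0.0117), the only call among 22 glycolysis genes. The single calls were 3.45% of the chromatin and 4.55% of the glycolysis genes. Both shares are near the 2.83% of all tested genes, so nothing particular is read from these counts. Of 34 oxidative phosphorylation genes 0 were called by edgeR at an adjusted p under 0.1, against 2 by DESeq2 on the 8 libraries. With 2.83% of all tested genes called by edgeR, nothing particular is read from this 0. The median log2 fold change was 0.22, or 0.40 without Sl/Sl clusters replicate 1 and 0.12 without Sl/Sl endothelium replicate 2.

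Mitosis genes were not called apart in Sl/Sl. There 0 of 32 tested genes were called by edgeR or by DESeq2 on the 8 libraries. By edgeR 2.83% of all tested genes were called, so nothing particular to mitosis genes is read from this 0. The median log2 fold change was -0.21, or -0.053 without Sl/Sl clusters replicate 1 and -0.34 without replicate 2. In wild type 9 were called higher in clusters, against 3.68% of all tested genes, with a median of -0.97. The list summed to 6167 and 6102 CPM in Sl/Sl endothelium and to 7758 and 5959 CPM in Sl/Sl clusters, which overlapped. In wild type it summed to 2945 and 4844 CPM in endothelium and to 6301 and 7338 CPM in clusters. Kif11, the spindle motor, was at 82.7 and 72.2 CPM in Sl/Sl endothelium and at 129 and 122 CPM in Sl/Sl clusters (log2 fold change -0.70, SE 0.33, edgeR adjusted p = 0.368), and at 33.2 and 40.8 CPM against 124 and 169 CPM in wild type (log2 fold change -1.99, adjusted p = 0.0134). The interaction, which is the Sl/Sl difference minus the wild type difference, was positive for 30 of the 32 genes, 5 of them at an unadjusted p under 0.05, and 0 were called. Over all tested genes the interaction was negative for 53.7%.

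Genes of the MAPK and PI3K pathways downstream of Kit had 1 call of 40 tested, 2.5% against 2.83% of all tested genes. Nothing particular to the list is read from that count. The call was Pik3cd, a PI3K subunit of leukocytes, with 3 and 0 counts in endothelium and 83 and 469 in clusters. This was a ratio of 138 (95% counting interval 46.9 to 670). Pik3cd lost the call without Sl/Sl clusters replicate 2 (adjusted p = 0.230) and without either endothelial library (adjusted p = 0.117 and 0.164). The list median on the log2 scale was 0.66 in Sl/Sl and -0.063 in wild type, and the Sl/Sl value was 0.24 without Sl/Sl endothelium replicate 2 and 0.91 without Sl/Sl clusters replicate 2. Dusp6, the ERK phosphatase that reports pathway activity, was at 268 and 319 CPM in Sl/Sl endothelium and at 201 and 61.4 CPM in Sl/Sl clusters (log2 fold change 1.16, SE 0.47, edgeR adjusted p = 0.302). Mcl1, a survival factor, was at 205 and 170 CPM in endothelium and at 90.8 and 107 CPM in clusters (log2 fold change 0.92, SE 0.32, edgeR adjusted p = 0.226), and in wild type at 133 and 168 CPM against 222 and 142 CPM.

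Markers of cells that neither gate should hold had 1 call over 4 lists, against 2.83% of all tested genes called, so nothing particular to them is read from the count. Of 26 mesenchymal genes tested 0 were called by edgeR, and 3 by DESeq2 on the 8 libraries, and 3 by edgeR without Sl/Sl clusters replicate 1, while all 26 had a negative log2 fold change, with a median of -2.70 in Sl/Sl and 0.039 in wild type. The direction of the whole list rested on Sl/Sl clusters replicate 2, without which its median was 2.50, and it was -7.30 without Sl/Sl endothelium replicate 2. Tbx18 had 0 and 0 counts in Sl/Sl endothelium and 1 and 651 in the clusters, and Pdgfrb had 1 and 0 counts against 1 and 508, so both rested on Sl/Sl clusters replicate 2, in which 27 of the 28 listed genes had over 3 counts. Of 13 skeletal muscle genes tested 1 was called, Actc1, the actin of embryonic muscle, with 4078 and 4692 counts in the 2 cluster libraries and 7 and 115 in the endothelium (log2 fold change -5.55, SE 1.12, edgeR adjusted p = 0.0482). Acta1 and Tnnc1, further muscle genes, had 1 and 28 counts in replicate 1 and 3078 and 2256 in replicate 2 of the clusters. Actc1 was thus high in both cluster libraries, unlike these. The skeletal muscle list median was -2.67, and 1.06 without Sl/Sl clusters replicate 2. Of 10 germ cell genes and 9 hepatocyte or epithelial genes tested 0 were called by edgeR, against 1 of each list by DESeq2 on the 8 libraries. Epcam, an epithelial adhesion molecule, had 0 counts in both Sl/Sl endothelial libraries and 71 and 399 in the clusters, at least 54.4-fold higher with a floor of 3 counts per library (edgeR adjusted p = 0.102, not called).

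**Figure D3:**
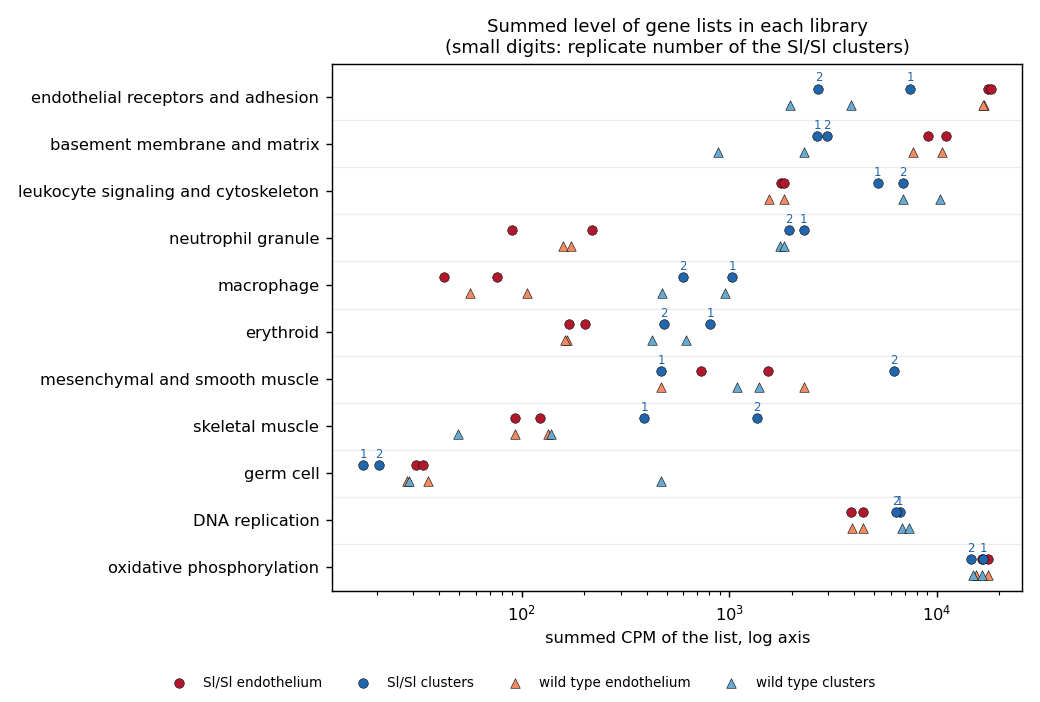
Summed CPM of the members of 11 gene lists in each library, on a log axis, with circles for Sl/Sl, triangles for wild type, reds for endothelium and blues for clusters. Digits give the replicate number of the 2 Sl/Sl cluster libraries, which lie apart for endothelial receptors (7442 and 2686 CPM) and for mesenchymal genes (470.4 and 6218 CPM).

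The same contrast in wild type, made from other libraries, gave 634 genes higher in endothelium (4.56% of those tested) and 512 higher in clusters (3.68%). Of the Sl/Sl calls, 118 higher in endothelium and 214 higher in clusters were also called in wild type, 332 in all and each in the same direction. These were 86.1% and 83.6% of the Sl/Sl calls, and 18.6% and 41.8% of the wild type calls. Wild type calls had the same sign in Sl/Sl for 620 of the 634 endothelial genes and for 497 of the 512 cluster genes. Of the wild type calls not called in Sl/Sl, 292 of 516 higher in endothelium and 152 of 298 higher in clusters had an unadjusted p under 0.05 there. Among genes called in both genotypes, the median log2 fold change toward endothelium was 2.04 in Sl/Sl and 2.58 in wild type, and toward clusters it was -6.77 and -6.08. These medians were not tested against each other. Over all 13908 genes, Pearson's r between the 2 sets of log2 fold changes was 0.435, across genes that are not independent replicates.

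**Figure D4:**
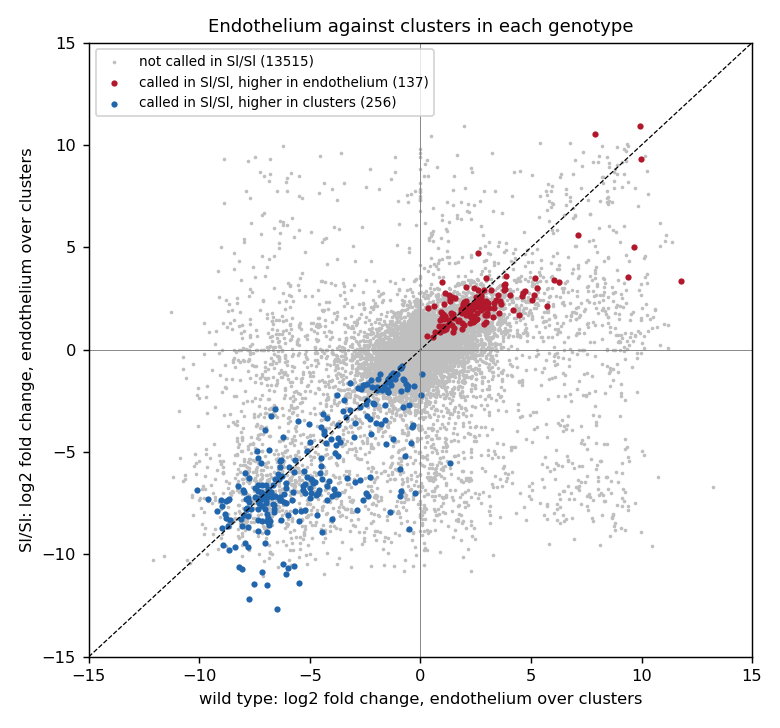
Log2 fold change of endothelium over clusters in wild type (horizontal axis) and in Sl/Sl (vertical axis) for 13908 tested genes, with the dashed line marking equal values. Red points are the 137 genes called higher in Sl/Sl endothelium and blue points the 256 called higher in Sl/Sl clusters, and gray points were not called in Sl/Sl.

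The difference between the genotypes was tested itself as the interaction, and 0 genes were called by edgeR (smallest adjusted p = 0.621), with 736 at an unadjusted p under 0.05 and 121 called by DESeq2. Of the 736 genes, 510 had a negative interaction and 226 a positive one. Against 53.7% negative over all tested genes, the endothelial lists had 24 of 30 receptors and adhesion genes, 25 of 28 basement membrane genes, 22 of 26 junction genes, 17 of 24 arterial genes, and 13 of 14 venous genes on the negative side. For endothelial transcription factors it was 16 of 28, near the share over all genes. Leukocyte signaling genes were negative for 15 of 38, blood receptor genes for 14 of 33 and mitosis genes for 2 of 32. The negative side was not particular to the endothelial lists. It also held 18 of 22 megakaryocyte genes, 16 of 22 macrophage genes, 8 of 9 neutrophil granule genes and 24 of 26 mesenchymal genes. Without Sl/Sl clusters replicate 1 the Sl/Sl median log2 fold change was 3.32 for receptors and 2.2 for junctions. The wild type medians were lower, at 2.95 and 2.04. In the same fit the Sl/Sl median was 1.88 for basement membrane, 3.2 for arterial and 3.18 for venous genes. Here the wild type medians were higher, at 2.63, 3.42 and 3.58. That fit leaves 1 library of Sl/Sl clusters, while the wild type medians rest on all wild type libraries. Endothelial receptors summed to 16820 and 16650 CPM in wild type endothelium, both below the Sl/Sl endothelium, and the 2 pairs of cluster sums given above overlapped between genotypes. Junction and caveolae genes summed to 1555 and 581 CPM in wild type clusters and to 2611 and 1351 CPM in Sl/Sl clusters, which also overlapped. Basement membrane genes summed to 2302 and 878 CPM in wild type clusters and to 2649 and 2951 CPM in Sl/Sl clusters, which did not. Arterial genes, at 912 and 405.4 CPM against 1460 and 995.5 CPM, did not overlap either. Nor did venous genes, at 292.5 and 159.5 CPM against 632.9 and 485.8 CPM. Endothelial transcription factors overlapped, at 1683 and 885.1 CPM against 2214 and 1438 CPM. Differences between these sums were not tested.

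Among genes called in Sl/Sl, those with the smallest interaction p differed in level between the genotypes in clusters, in endothelium or in both. Apold1, Eogt, Tmem255b, Id3, Mest and Nid1 had endothelial levels in the same range in both genotypes, and each Sl/Sl cluster library lay above both wild type ones. Apold1 had 140 and 129 counts in Sl/Sl clusters and 3 and 1 in wild type clusters (for the interaction, edgeR adjusted p = 0.621, not called). Nid1 was at 76.8 and 79.0 CPM in Sl/Sl clusters and at 19.5 and 7.40 CPM in wild type clusters. Id3 was at 498 and 351.5 CPM in Sl/Sl clusters and at 136 and 128 CPM in wild type clusters (interaction -1.70 on the log2 scale, edgeR adjusted p = 0.807). Mest, an imprinted gene of growing mesoderm, was at 620 and 216 CPM against 63.1 and 65.3 CPM. The Sl/Sl calls of Eogt and Tmem255b were lost without any 1 of the Sl/Sl libraries (adjusted p up to 0.210 and 0.327), and that of Mest without Sl/Sl endothelium replicate 1 or 2 or Sl/Sl clusters replicate 2 (adjusted p = 0.101, 0.188 and 0.105). For S1pr3, Erlin1 and Angpt1 the endothelium differed. S1pr3, a sphingosine 1-phosphate receptor, had 0 and 1 counts in the Sl/Sl endothelium libraries against 149 and 164 in those of wild type, and Erlin1, a protein of the endoplasmic reticulum, was at 4.03 and 3.69 CPM there against 39.6 CPM in each wild type endothelium library. Both stayed called in Sl/Sl without each Sl/Sl library. Actc1 differed in both populations, at 335 and 328 CPM in Sl/Sl clusters, 5.26 and 12.6 CPM in wild type clusters, 0.613 and 13.7 CPM in the endothelium of Sl/Sl and 19.6 and 25.3 CPM in that of wild type. Angpt1 was higher in Sl/Sl than in wild type endothelium. No adjusted interaction p was under 0.621 for any of these genes, and they were named for their small unadjusted p, so their values are a description.

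**Figure D5:**
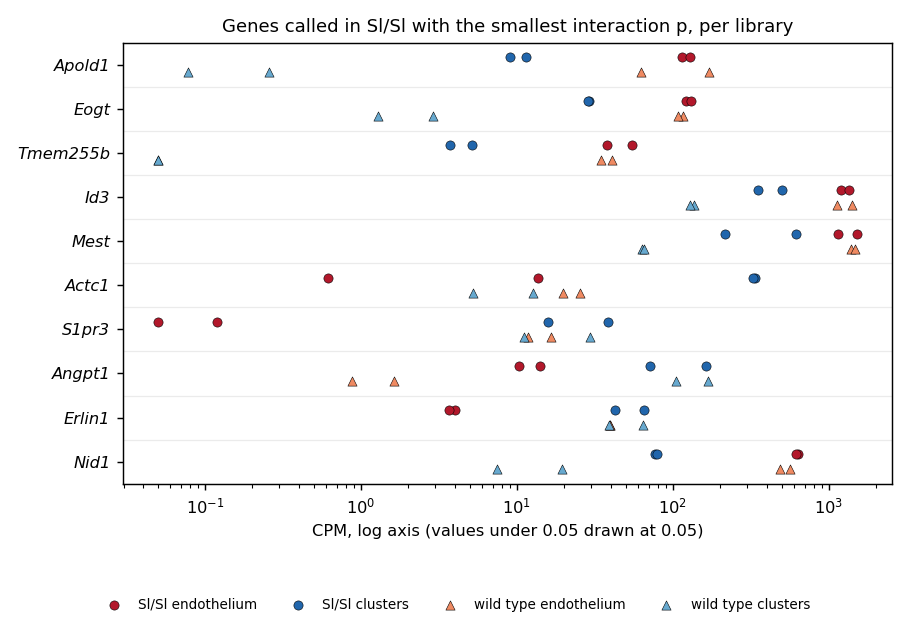
CPM on a log axis in each library for the 10 genes called in Sl/Sl with the smallest interaction p, circles for Sl/Sl, triangles for wild type, reds for endothelium and blues for clusters, with values under 0.05 drawn at 0.05. For Apold1, Eogt, Tmem255b, Id3, Mest and Nid1 the dark blue circles lie to the right of the pale blue triangles, and for S1pr3 and Erlin1 the red circles lie to the left of the pale red triangles.

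Called genes at the highest levels were expressed in both populations. Tmsb4x, which encodes an actin-binding thymosin, was among the called genes of highest level in both populations, at 3627 and 3664 CPM in Sl/Sl endothelium and at 2124 and 1914 CPM in clusters (log2 fold change 0.85, SE 0.15, edgeR adjusted p = 0.0261), and lost the call without Sl/Sl clusters replicate 2 (adjusted p = 0.116). Fstl1, a secreted glycoprotein, was at 2407 and 2426 CPM against 812 and 1290 CPM and stayed called without each library. Arhgdib, a member of the leukocyte signaling list, was at 735.5 and 752 CPM in endothelium and at 1483 and 1933 CPM in clusters (log2 fold change -1.20, SE 0.28, edgeR adjusted p = 0.0814), and was lost without either endothelial library (adjusted p = 0.206 and 0.143) and without Sl/Sl clusters replicate 2 (adjusted p = 0.242).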

How the data were processed

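RNA from 100 sorted cells per sample was made into Smart-seq2 libraries, which carry no molecular identifiers. Per the labels, the authors aligned reads to mm9 with STAR 2.4.2a and counted them per gene with featureCounts of Subread 1.4.5; the annotation and strand setting are not given in the sources used here. The deposited table gives unnormalized whole-number counts for each gene, with exon coordinates and length. Counting intervals and floors cover counting error only. Groups came from the labels, and 0 samples were left out.

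Counts were tested with edgeR 4.0.16 in R 4.3.3 (TMM, filterByExpr, glmQLFit over 4 group means of 8 libraries), with Benjamini-Hochberg adjustment over 13908 genes and the study's threshold of 0.1. With 2 against 2 libraries an exact permutation test cannot go below p = 0.333. Genes at 0 in a group were set to 3 counts per library for bounds. Named genes were the sort markers and Kitl, the 10 largest changes in each direction at a mean of 50 CPM or more, the 5 smallest p in each direction, up to 5 members of each list by p and those called opposite to the list, the 10 smallest interaction p over all genes and among Sl/Sl calls, and the 5 most abundant called genes of each population. Members and lists were chosen with earlier results of these data known. Alternatives were RLE size factors, no filter, 10 counts in every library, DESeq2 1.42.0, a threshold of 0.05, 4 libraries alone, a replicate block and leaving out each library. Of 24015 rows, 27 have names turned into dates and are not named. Overlapping genes can share reads.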

Additional observations from a re-analysis of the deposited data

Results flagged for a closer look

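For the MAPK and PI3K list, the libraries' median levels were ordered oppositely in the 2 genotypes. All gene lists were scanned for medians that did not overlap and had opposite order, and no other list had them. The list was picked for this pattern, so its values are a description and no support for a difference between genotypes. The median log2 CPM of its 40 genes was 5.36 and 5.07 for the Sl/Sl endothelium libraries, against 4.25 and 5.03 for the Sl/Sl clusters, a difference of group means of 0.58. In wild type it was 4.81 and 4.62 in endothelium and 5.21 and 5.16 in clusters, a difference of -0.47. In each genotype the libraries of the 2 populations did not overlap, though the margin in Sl/Sl was narrow between endothelium replicate 2 and clusters replicate 2. The difference between the genotypes was not tested for the list. Gene by gene, the median log2 fold change was 0.66 in Sl/Sl and -0.063 in wild type, where 16 of 40 were positive. Of its genes, 27 had a positive interaction and 0 were called by edgeR. With 2 libraries a group, no test for single outlying libraries was made.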

How the results depend on the processing

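The Sl/Sl count of 393 calls became 1266 with no filter on low counts, 1418 with DESeq2 on the 8 libraries and 1470 with DESeq2 on 4, 222 at an adjusted p under 0.05, 211 with edgeR on the 4 Sl/Sl libraries, and 182 to 402 with 1 Sl/Sl library left out. RLE factors gave 396. With at least 10 counts in every library it was 269, of which 137 were higher in endothelium, so that the share higher in endothelium moved from 34.9% to 50.9%. The wild type count of 1146 became 1990, 2409 and 657 with no filter, DESeq2 and the 0.05 threshold, and 592 to 1015 with 1 wild type library left out, lowest without clusters replicate 2. The interaction count of 0 became 179 with no filter and 121 with DESeq2, and 0 to 27 with 1 library left out, highest without wild type clusters replicate 1. Causes were not tested. A fit that leaves 1 library in a group assumes that it varies like the others. Cells came from 2 sorts that no label ties to a sample, and replicate numbers are not shown to pair the samples: the correlation of their deviations from the group means was 0.0231 in Sl/Sl and -0.0117 in wild type. With the replicate block, 452 Sl/Sl genes (193 higher in endothelium, 259 in clusters) were called on 8 libraries and 306 on 4, and 1180 in wild type.

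Directions that reversed were of genes not called. With 1 library left out, the Sl/Sl log2 fold change ran from -7.49 to 6.21 for Acta1, -10.03 to 6.02 for Krt19, -5.12 to 0.97 for Tnnc1, -0.90 to 0.18 for Itga2b, -0.037 to 1.89 for Tmem120b, -8.61 to 0 for Myf5 and -9.04 to 0 for Myod1, each reversed or at 0 without Sl/Sl clusters replicate 2. It ran from -2.17 to 2.22 for Hbb-y, -3.62 to 1.59 for Klf1, -0.36 to 0.68 for Slc2a13, -8.18 to 0 for Dppa4 and -7.75 to 0 for Pax8, reversed or at 0 without Sl/Sl clusters replicate 1, and from -1.38 to 4.46 for Dnd1 and -3.63 to 5.39 for Dppa5a, reversed without Sl/Sl endothelium replicate 2. Slc2a13 was also at -0.23 without Sl/Sl endothelium replicate 1 and at -0.056 with the replicate block. At this depth 3 counts are up to 0.358 CPM, so differences between lower levels were not detectable.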

Other observations

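Genes named for a small interaction p are given here as description. Nrep, a protein of tissue repair and migration, was at 1142 and 1360 CPM in Sl/Sl endothelium and at 740 and 1066 CPM in Sl/Sl clusters, and at 1459 and 1571 CPM against 210 and 306 CPM in wild type (for the interaction, edgeR adjusted p = 0.621). Maged2 was at 773 and 950 CPM against 670 and 592 CPM in Sl/Sl and at 773 and 684 CPM against 206 and 172 CPM in wild type (for the interaction, edgeR adjusted p = 0.899). For both genes the difference between endothelium and clusters was called in wild type and not in Sl/Sl, and the interaction was not called. Syk, a kinase of blood cells and a member of the leukocyte signaling list, was at 26.1 and 19.3 CPM in the endothelium of Sl/Sl and at 3.58 and 3.84 CPM in that of wild type, with 44.4 and 55.6 CPM in Sl/Sl clusters and 130 and 107 CPM in wild type clusters (for the interaction, edgeR adjusted p = 0.621, not called). Tmem120b and Slc2a13 had 1 count or none in each wild type cluster library and between 70 and 227 counts in the Sl/Sl cluster libraries.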
